A study of Mus musculus with 6 samples.

Results

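Genes of the B cell were followed in non-cardiomyocytes (non-CMs) sorted from adult mouse hearts. The set holds 9 of the 24062 gene symbols of the count table, Cd79a, Cd79b, Ms4a1, Cd22, Blk, Pax5, Ebf1, Cd37 and Bank1, and was chosen by gene name. Cells came from Tw2-CreERT2;R26-tdTO mice, in which tamoxifen activates a Cre recombinase made in cells that express Twist2, and the recombinase permanently switches on the red fluorescent protein tdTomato. All mice carried both alleles and received tamoxifen at 8 weeks of age, their hearts were dissociated 10 days after dosing began, and the mice are recorded as 9 weeks old. The tdTomato-positive cells (Tw2+) and the tdTomato-negative cells (Tw2-) were sorted from the same kind of non-CM preparation after staining with Mitoview633, a mitochondrial dye. Each group has 3 libraries, described as biological replicates, from pooled cardiac cells, and the number of hearts per library is not given here. P-values therefore measure the spread between these libraries. A Tw2+ cell expressed the driver at dosing or descends from such a cell, and Tw2- is every other sorted cell, not 1 cell type.

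B lymphocytes recognise antigen through a membrane immunoglobulin that signals through a pair of associated chains, encoded by Cd79a and Cd79b. Src family kinases phosphorylate these chains, adaptors and further kinases carry the signal on, and co-receptors such as CD22 adjust its strength. The transcription factors EBF1 and PAX5 establish and hold B cell identity, and Cd79a is a classical target of both. The heart holds resident and circulating B cells among its leukocytes. EBF1 is not restricted to lymphocytes, since it is also made in mesenchymal and adipocyte precursor cells.

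Promoter sequences are shown for 3 genes with lower counts in Tw2+ and for Ebf1, so that the letters at their starts can be compared. RefSeq (GRCm38.p6) gave 7 promoter entries for 6 of the 9 members, namely Cd79a, Cd22, Cd37, Bank1, Pax5 and Ebf1, which has 2. Each sequence is the 250 bases before the start of the RefSeq transcript, 5′ to 3′ on the gene's strand. The gene positions given further below are GENCODE spans, whose starts can differ. The Cd22, Cd37 and Ebf1 windows shown lie inside those spans, and the Cd79a window lies partly inside. Capitals mark matches, on either strand, to the EBF palindrome (TCCC and GGGA separated by any 2 bases), the octamer ATTTGCAT, the ETS-type AGGAAGT or the E box CAGGTG, none of which overlap one another here.
Cd79a, chr7:24897247-24897496, + strand: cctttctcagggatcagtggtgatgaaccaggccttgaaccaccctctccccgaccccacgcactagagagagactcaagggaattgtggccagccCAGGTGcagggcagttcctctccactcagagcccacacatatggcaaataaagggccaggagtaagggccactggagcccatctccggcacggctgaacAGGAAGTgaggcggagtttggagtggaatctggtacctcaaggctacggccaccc
Cd22, chr7:30879029-30879278, - strand: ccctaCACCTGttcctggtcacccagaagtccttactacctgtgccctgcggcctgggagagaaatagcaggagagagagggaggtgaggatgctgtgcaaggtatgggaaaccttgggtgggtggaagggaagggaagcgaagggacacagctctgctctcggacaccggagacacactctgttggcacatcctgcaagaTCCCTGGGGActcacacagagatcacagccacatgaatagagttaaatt
Cd37, chr7:45238840-45239089, - strand: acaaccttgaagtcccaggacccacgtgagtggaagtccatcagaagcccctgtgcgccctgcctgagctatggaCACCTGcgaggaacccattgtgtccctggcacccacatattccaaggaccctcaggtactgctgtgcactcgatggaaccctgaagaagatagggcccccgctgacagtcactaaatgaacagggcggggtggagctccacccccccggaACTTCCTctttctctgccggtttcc
Ebf1, chr11:44619978-44620227, + strand: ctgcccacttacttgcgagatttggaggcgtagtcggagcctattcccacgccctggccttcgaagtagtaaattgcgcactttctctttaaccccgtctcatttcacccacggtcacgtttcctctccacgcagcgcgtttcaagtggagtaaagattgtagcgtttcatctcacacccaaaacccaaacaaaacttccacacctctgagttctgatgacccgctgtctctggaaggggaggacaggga
The E box CAGGTG stood in 4 of the 7 member windows (Cd79a, Cd22, Cd37 and Bank1) and in 17.2% of all 32851 RefSeq windows of this length. The ETS-type letters stood in 2 of the 7, at 55 bases before the start of Cd79a and 25 before that of Cd37, and in 7.69% of all windows. The EBF palindrome stood in 1 of the 7, at 49 bases before the start of Cd22, and in 0.779% of all windows, while the octamer stood in 0 of the 7 and in 1.6% of all. The Ebf1 and Pax5 windows held no match. These motifs were taken from textbook consensus sequences, and a match describes the letters only. Only exact matches were searched, so a window without a match may still hold a variant site.

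Library totals ranged from 11746696 to 13280522 counts in Tw2+ and from 11767130 to 16447098 in Tw2-, so that 3 counts stood for 0.161 to 0.302 CPM, the counts scaled to a common TMM-adjusted library total. The driver gene Twist2 had means of 6.93 ± 0.420 CPM for Tw2+ libraries and 3.50 ± 1.48 CPM for Tw2- libraries (SD, n = 3 each), a difference that missed the threshold (edgeR adjusted p = 0.0738). An antisense model covers 46.5% of its exonic length. The 13 fibroblast markers, all past the count filter, had summed levels of 62919.7 to 75225 CPM in Tw2+ and 38165 to 56665 CPM in Tw2-. The 10 cardiomyocyte markers, also present in these sorted non-CMs, summed to 139 to 449.6 CPM in Tw2+ and 744 to 1391 CPM in Tw2-, and all 10 fell. Among markers of other cells, 4 of 10 endothelial genes fell, 1 of 9 pericyte genes fell and 1 rose, 2 of 13 fibroblast genes rose, and the 1 erythroid gene tested fell. That erythroid gene and 1 of the 10 cardiomyocyte genes passed the count filter through Tw2-.

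Transcripts of the B cell were scarce in Tw2+ and present at low levels in Tw2-, with Ebf1 as the exception. In edgeR's quasi-likelihood test over all genes, 7 of the 9 members were lower in Tw2+ at an adjusted p under 0.05, namely Cd79a, Cd79b, Ms4a1, Cd22, Blk, Cd37 and Bank1. Ebf1 did not pass, and Pax5 had too few counts to be tested. No member was called higher. Of all 13180 tested genes, 10.8% were called lower and 7.41% higher. The groups' CPM did not overlap, with Tw2+ lower, for the same 7 genes and for untested Pax5, against 19.2% of the tested genes. The 7 called members passed the filter on low counts through their Tw2- libraries alone, so that the count describes them and is not independent of the filter. In bulk libraries, fewer B cells and less RNA per B cell cannot be told apart.

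**Figure D1:**
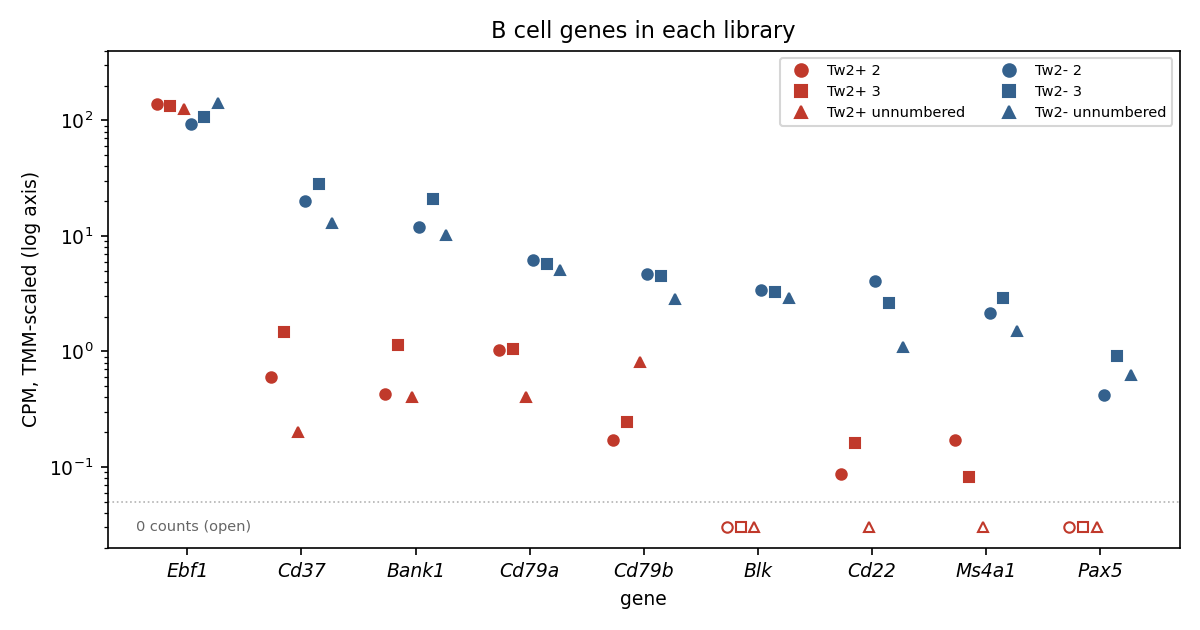
CPM (log axis) of each of the 9 B cell genes in the 3 Tw2+ libraries (red, left) and the 3 Tw2- libraries (blue, right), with a symbol for each library and open symbols below the dotted line for 0 counts. Ebf1 lies near 100 CPM in both groups, and the red symbols of each of the other 8 genes lie below its blue ones.

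The signalling chains of the B cell receptor were both lower in Tw2+. Cd79a (chromosome 7, 24897381 to 24902197, + strand, GRCm38) encodes the Igα chain. It had 12, 13 and 4 counts in the Tw2+ libraries, always given as replicate 2, replicate 3 and the unnumbered one, or 1.04, 1.06 and 0.403 CPM, against 102, 106 and 65 counts in the Tw2- libraries in the same order, or 6.15, 5.69 and 5.10 CPM. All 3 Tw2+ values lay below all 3 Tw2- values, and the Tw2- libraries lay close together. The level was 6.63-fold lower (log2 -2.73, SE 0.40), with an adjusted p of 0.00241.

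Cd79b (chromosome 11, 106311341 to 106314762, - strand) encodes the partner chain Igβ. It had 2, 3 and 8 counts in the Tw2+ libraries (0.173, 0.244 and 0.805 CPM), against 77, 83 and 36 counts in the Tw2- libraries (4.64, 4.46 and 2.82 CPM). The unnumbered libraries were the highest of Tw2+ and the lowest of Tw2-. The log2 fold change was -3.31 (SE 0.55, adjusted p = 0.00487). Leaving out single libraries gave -2.94 (without Tw2+ 2) to -4.19 (without the unnumbered Tw2+ library). That library was also the only one with more counts of Cd79b than of Cd79a, at a ratio of Cd79a to Cd79b counts of 0.5, beside 6 and 4.33 in the other Tw2+ libraries and 1.28 to 1.81 in Tw2-.

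The kinase and the adaptor that act next to the receptor were lower as well. Blk (chromosome 14, 63372836 to 63417037, - strand) encodes a Src family kinase of B cells. It had 0 counts in each Tw2+ library, against 57, 61 and 37 counts in the Tw2- libraries (3.44, 3.28 and 2.90 CPM). With Tw2+ set at a floor of 3 counts over the group, it was 36.4-fold lower there, with a lower 95% counting limit of 30.9-fold. That limit covers the Tw2- counts alone. The exact 95% interval over the counts of both groups began at 29.3-fold. The adjusted p in edgeR was 0.000728. Bank1 (chromosome 3, 136053363 to 136326066, - strand) encodes an ankyrin-repeat scaffold of B cell signalling. It had 5, 14 and 4 counts in the Tw2+ libraries (0.432, 1.14 and 0.403 CPM), against 199, 387 and 130 counts in the Tw2- libraries (12, 20.8 and 10.2 CPM). Replicate 3 was the highest library of each group, and the groups lay far apart. The level was 21.1-fold lower (log2 fold change -4.40, SE 0.49, adjusted p = 0.000518). Leaving out single libraries gave log2 values from -5.07 (without Tw2+ 3) to -4.08 (without Tw2- 3).

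The 3 surface proteins followed. Cd37 (chromosome 7, 45233632 to 45239115, - strand) encodes a tetraspanin of mature B cells that other leukocytes also make. It had 7, 18 and 2 counts in the Tw2+ libraries (0.604, 1.46 and 0.201 CPM), against 331, 521 and 164 counts in the Tw2- libraries (19.9, 28.0 and 12.9 CPM). In both groups replicate 3 was highest and the unnumbered library lowest. The level was 25.7-fold lower (log2 fold change -4.69, SE 0.56, adjusted p = 0.000801). Log2 values with single libraries left out ran from -5.58 (without Tw2+ 3) to -4.27 (without the unnumbered Tw2+ library).

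Cd22 (chromosome 7, 30865402 to 30880342, - strand) encodes an inhibitory sialic acid-binding co-receptor. It had 1, 2 and 0 counts in the Tw2+ libraries, against 68, 49 and 14 counts in the Tw2- libraries (4.10, 2.63 and 1.10 CPM). An antisense model covers 9.50% of its exonic length. The log2 fold change was -4.76 (SE 0.80, adjusted p = 0.00502). Single libraries left out gave -5.58 (without Tw2+ 3) to -4.29 (without the unnumbered Tw2+ library). Summed counts of 3 in Tw2+ and 131 in Tw2- gave a ratio of Tw2- to Tw2+ of 30.8, with a 95% counting interval of 10.3 to 151.

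Ms4a1 (chromosome 19, 11249675 to 11266241, - strand) encodes CD20, the target of B cell-depleting antibodies. It had 2, 1 and 0 counts in the Tw2+ libraries, against 36, 54 and 19 counts in the Tw2- libraries (2.17, 2.90 and 1.49 CPM). Each Tw2+ library lay at or below the level of 3 counts. The log2 fold change was -4.51 (SE 0.68, adjusted p = 0.00273). Single libraries left out gave -5.36 (without Tw2+ 2) to -4.03 (without the unnumbered Tw2+ library). The ratio of summed counts, Tw2- to Tw2+, was 25.6 with a 95% counting interval of 8.54 to 126.

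The 2 transcription factors parted. Pax5 (chromosome 4, 44524757 to 44710487, - strand), the factor that commits cells to the B lineage, had 0 counts in each Tw2+ library, against 7, 17 and 8 counts in the Tw2- libraries (0.422, 0.913 and 0.628 CPM). With the floor of 3 counts over the group it was 7.52-fold lower in Tw2+, with a lower 95% counting limit of 5.15-fold. Pax5 was not tested in the main comparison, and was lower at an adjusted p of 0.00881 in edgeR without the filter and of 0.00531 in DESeq2.

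Ebf1 (chromosome 11, 44617317 to 45008091, + strand), the early B cell factor, had 1617, 1625 and 1249 counts in the Tw2+ libraries, or 139.6, 132 and 126 CPM, against 1557, 1983 and 1813 counts in the Tw2- libraries, or 93.8, 106 and 142 CPM. The unnumbered Tw2- library was the highest of all 6, and the groups overlapped. The means were 132 ± 6.96 CPM in Tw2+ and 114 ± 25.1 CPM in Tw2- (SD, n = 3 each). The log2 fold change was 0.21 (SE 0.20) and did not pass in edgeR (adjusted p = 0.467), and it was -0.062 with scaling by library size alone and -0.42 with scaling to the fibroblast markers, neither past the test.

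Levels differed widely between the members when compared per kilobase of exonic length. This length is the union of all annotated exons of a gene, from 1.43 kilobases for Cd79b to 9.76 for Ebf1. It can exceed the length of the expressed transcript, so that the order also depends on the annotation. In Tw2-, Ebf1 stood first at 11.7 ± 2.57 CPM per kilobase, followed by Cd37 at 5.75 ± 2.15, Cd79a at 3.88 ± 0.360 and Cd79b at 2.78 ± 0.698 (SD, n = 3 each). Bank1 (1.91 ± 0.756), Blk (1.19 ± 0.101), Cd22 (0.517 ± 0.297), Ms4a1 (0.353 ± 0.114) and Pax5 (0.0739 ± 0.0278) came after them. The SD ranges of the neighbours Cd37 and Cd79a overlap, as do those of Cd79b and Bank1, of Bank1 and Blk, and of Cd22 and Ms4a1. In Tw2+, Ebf1 was at 13.6 ± 0.714 CPM per kilobase, Cd79a at 0.571 ± 0.255, Cd79b at 0.285 ± 0.242 and Cd37 at 0.215 ± 0.183, and the last 3 overlap.

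**Figure D2:**
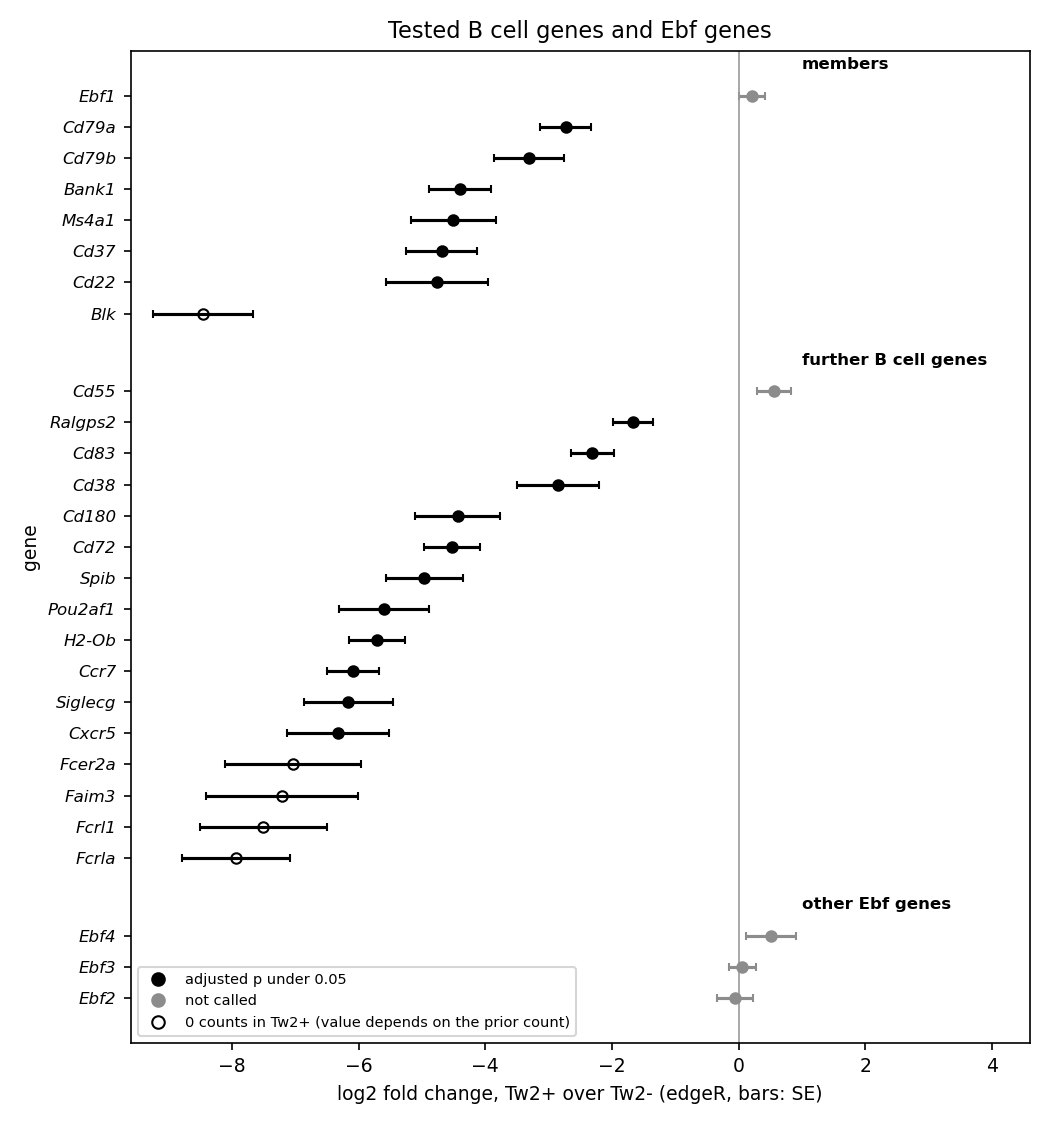
Log2 fold change of Tw2+ over Tw2- in edgeR with its standard error, for the tested members, 16 of the 17 tested further B cell genes and the other Ebf genes. Black points are called at an adjusted p under 0.05, grey ones are not, and open points have 0 counts in Tw2+, so that their position depends on the prior count. All called genes lie left of 0, and the 4 Ebf genes and Cd55 are the grey ones.

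The make-up of the few B cell counts in Tw2+ was set beside that in Tw2-. Without Ebf1, the members summed to 29, 51 and 18 counts in the Tw2+ libraries (2.50, 4.14 and 1.81 CPM), against 877, 1278 and 473 counts in the Tw2- libraries (52.9, 68.6 and 37.1 CPM). Cd79a made up 41.4%, 25.5% and 22.2% of these counts in the Tw2+ libraries, against 11.6%, 8.29% and 13.7% in the Tw2- libraries. The shares did not overlap, and an exact two-sided permutation test gave p = 0.1, the smallest that 3 against 3 allows. The 95% exact interval reached from 6.41% to 47.6% in the unnumbered Tw2+ library, which rests on 4 counts, and from 10.8% to 17.2% in the unnumbered Tw2- library. Bank1 held 17.2% to 27.5% in Tw2+ and 22.7% to 30.3% in Tw2-, which overlap. The same permutation test gave p = 0.9 for Cd79b and p = 0.2 each for Cd37 and Bank1. These p-values were not adjusted for the number of shares tested. The shares of Blk and Pax5, at 0 in Tw2+, did not overlap between the groups either.

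**Figure D3:**
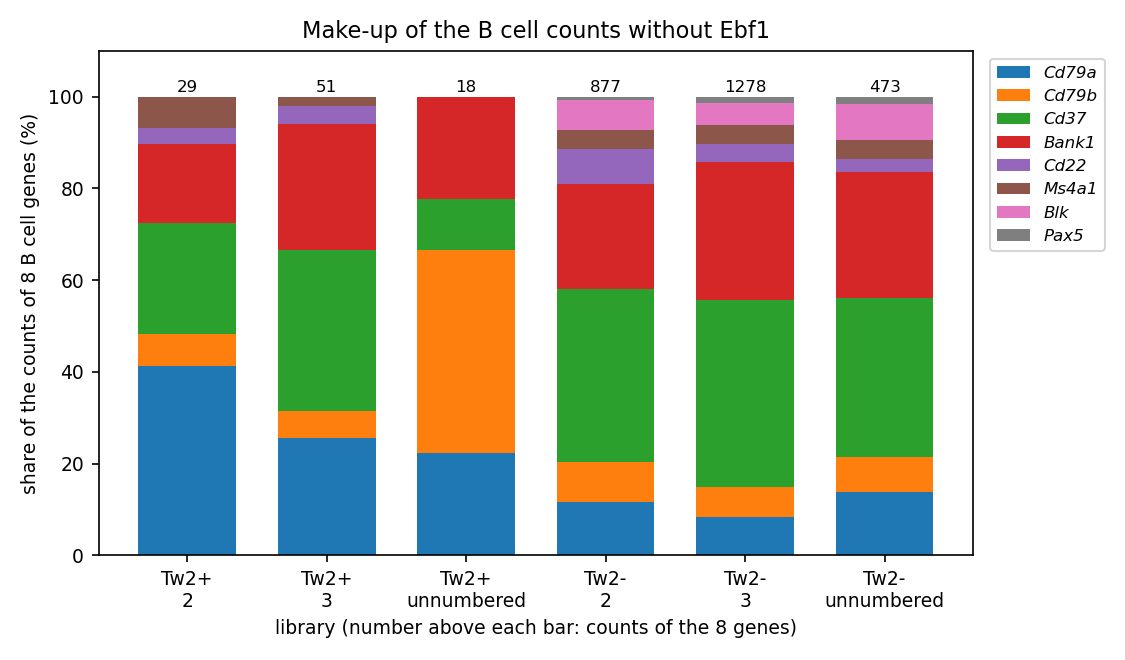
Share (%) of each gene in the summed counts of the 8 members other than Ebf1, for each of the 3 Tw2+ and 3 Tw2- libraries, with the number of counts above each bar. The 3 Tw2- bars look alike, Cd79a takes 22.2% to 41.4% in Tw2+, and Cd79b takes 44.4% in the unnumbered Tw2+ library, from 18 counts in all.

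Other genes of the B cell were mostly lower in Tw2+ too. Of 22 further B cell genes, 17 were tested and 16 were called lower. Of these 17, 13 were below the level of the count filter in at least 1 Tw2+ library, so that they passed it through Tw2-, and all 13 were called lower. The count and the median are therefore descriptions that the filter in large part fixed. Of the other 4, Ralgps2, Cd83 and Cd38 fell and Cd55 did not pass. The median log2 fold change of those tested was -5.71, or -4.52 with genes at 0 counts in Tw2+ set at the floor of 3 counts, and the median of all tested genes was 0.0019. Cxcr5, the receptor that guides B cells to follicles, had 1 count in Tw2+ and 151 in Tw2-, a ratio of Tw2- to Tw2+ of 106.5 with a 95% counting interval of 18.8 to 4234 (adjusted p = 0.00108). H2-Ob, which modulates peptide loading onto MHC class II, was at a log2 fold change of -5.71 (adjusted p = 0.000167). Pou2af1, the coactivator of octamer factors, had 2 counts in Tw2+ and 158 in Tw2-, a ratio of 55.7 with an interval of 15.2 to 464 (adjusted p = 0.00102). Fcer2a, Fcrla, Fcrl1 and Faim3, an older symbol of Fcmr, had 0 counts in Tw2+. With the floor of 3 counts they were 13.9-fold, 25.4-fold, 19.3-fold and 15.8-fold lower. The lower 95% counting limits were 10.6-fold, 20.8-fold, 15.3-fold and 12.2-fold. Ralgps2 (log2 -1.67) and Cd83 (-2.31) fell least among the 16. Cd55, a complement regulator of many cell types, was the tested gene that did not pass, with 156 ± 26.7 CPM for Tw2+ libraries and 106 ± 36.9 CPM for Tw2- libraries (adjusted p = 0.170). Cd72, a co-receptor, was at -4.52 (adjusted p = 0.000298), and the antisense gene Tesk1 overlaps 41.6% of its exons.

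Immunoglobulin genes could be followed only in part, since 3 of the 15 listed had a row. Igj, which encodes the joining chain of secreted antibodies, had 0, 21 and 3 counts in the Tw2+ libraries, against 27, 16 and 4 counts in the Tw2- libraries. It overlapped between the groups, with Tw2+ 3 holding nearly all of its Tw2+ counts, and did not pass (log2 fold change -0.46, SE 0.97, adjusted p = 0.757).

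Most signalling genes downstream of the receptor were lower, to unequal degrees. Of 23 listed, all were tested and 18 were lower (median -3.10 on the log2 scale), and 3 of the 18 passed the count filter through Tw2-. Btk, the kinase whose loss blocks B cell development, had means of 0.397 ± 0.291 CPM for Tw2+ libraries and 14.5 ± 5.89 CPM for Tw2- libraries (log2 -5.12, SE 0.52, adjusted p = 0.000348). The phosphoinositide 3-kinase adaptor Pik3ap1 was at -4.66, the inhibitory Fc receptor Fcgr2b at -4.58 and the phosphatase Ptpn6 at -4.55. Lyn, which phosphorylates the receptor chains, was at -3.10 (adjusted p = 0.000357). Blnk, the linker of Syk to its targets, was at -1.40 (adjusted p = 0.00759) and Syk itself at -0.97 (adjusted p = 0.0311), with 92.9 ± 15.2 CPM for Tw2+ libraries and 181 ± 54.7 CPM for Tw2- libraries. Vav2, Pik3r1, Bcl10, Grb2 and Nfatc2 did not pass. Many of these genes are also used by myeloid cells.

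Among 16 transcription factors of the B lineage, 13 were tested and 7 were lower, with a median of -0.93, and 4 of the 7 passed the count filter through Tw2-. Ikzf3 (-5.59, adjusted p = 0.000385), Ikzf1 (-4.80, adjusted p = 0.000264) and Pou2f2 (-4.31, adjusted p = 0.000382), factors of lymphoid and other blood cells, fell the most together with Irf4 (-4.25) and Spi1 (-4.04). Tcf3, which encodes the E proteins that act with EBF1, stood at 45.2 ± 8.32 CPM for Tw2+ libraries and 50.6 ± 4.88 CPM for Tw2- libraries (log2 -0.16, adjusted p = 0.578). Foxo1, Bcl6, Bach2, Runx1 and Id3 did not pass either, and all 5 overlapped between the groups.

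The families of the members were compared gene by gene. The other Ebf genes resembled Ebf1 in not passing the test. Ebf2 had 108, 167 and 92.3 CPM in the Tw2+ libraries, against 92.0, 128 and 162 CPM in the Tw2- libraries (log2 -0.053, SE 0.28, adjusted p = 0.911). Ebf3 had 54.9, 80.7 and 55.7 CPM in Tw2+, against 54.9, 65.2 and 63.2 CPM in Tw2-, a log2 difference of 0.063 with an SE of 0.21 (adjusted p = 0.850), and Ebf4 was at 0.51 (SE 0.40, adjusted p = 0.380). All 3 overlapped between the groups. Among the other Src family kinases, the leukocyte kinases Fgr (-5.68) and Lyn fell, while Lck (-2.68, adjusted p = 0.0874), Fyn, Src, Yes1 and Frk did not pass. Of 12 other Ms4a genes, 6 were tested and 5 fell, among them Ms4a4c with 3 counts in Tw2+ and 168 in Tw2- (ratio 39.5, 95% counting interval 13.3 to 193), and Ms4a4d was at 0.32 (adjusted p = 0.369). All 5 tested Siglec genes fell, among them Siglecg with 1 count in Tw2+ and 133 in Tw2- (ratio 93.8, interval 16.5 to 3732). Of 13 other tetraspanins, 4 fell, led by the leukocyte gene Cd53 (-4.54), and Cd63 rose (0.86, adjusted p = 0.0225). Cd81, which many cells make, was at -0.53 (adjusted p = 0.123). None of 8 other Pax genes reached the count filter. Of the genes called lower in these families, 3 Ms4a, 3 Siglec, 2 Src family and 1 tetraspanin gene passed that filter through Tw2-.

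**Figure D4:**
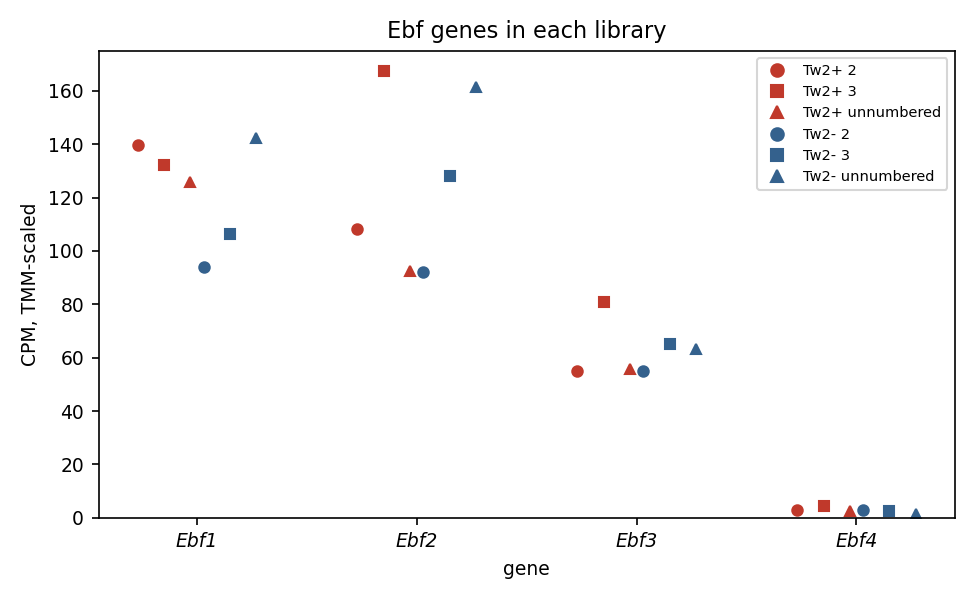
CPM of Ebf1, Ebf2, Ebf3 and Ebf4 in the 3 Tw2+ libraries (red, left) and the 3 Tw2- libraries (blue, right), with a symbol for each library. Red and blue symbols overlap for each gene, and Ebf1 in Tw2+ spans 126 to 139.6 CPM.

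Markers of other leukocytes moved with the B cell genes. Of 10 pan-leukocyte genes, 9 fell (median -4.68 on the log2 scale), and their summed level was 61.3 to 95.8 CPM in Tw2+ and 900.4 to 1509 CPM in Tw2-. Ptprc, the common leukocyte antigen CD45, had means of 5.70 ± 1.61 CPM for Tw2+ libraries and 170.1 ± 52.0 CPM for Tw2- libraries (log2 -4.89, SE 0.33, adjusted p = 0.000127). All 12 macrophage and monocyte markers fell (median -4.34, summed level 120 to 298 CPM in Tw2+ and 2352 to 5320 CPM in Tw2-), as did all 8 neutrophil markers, 7 of which passed the count filter through Tw2- (summed level 2.84 to 3.19 CPM in Tw2+ and 156 to 350.2 CPM in Tw2-). In Tw2+ the neutrophil genes Cxcr2 and Retnlg were at 0 counts. Among 12 markers of T and NK cells, 2 of the 3 tested fell (summed level 0.503 to 3.45 CPM in Tw2+ and 7.45 to 45.4 CPM in Tw2-), and of 9 dendritic cell markers, 7 were tested and 5 fell. These 2 T and NK genes and these 5 dendritic genes all passed the count filter through Tw2-. So did 4 of the 9 pan-leukocyte genes and 2 of the 12 macrophage and monocyte genes, so that the counts are not independent of the filter. The part of these other leukocytes in the result for Cd37, Blk and the signalling genes was not tested.

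The members were then set against the leukocyte signal of the same library. The 8 members other than Ebf1 had 26.1, 49.3 and 29.6 CPM per 1000 CPM of the pan-leukocyte list in the Tw2+ libraries, against 35.0, 46.0 and 41.2 in the Tw2- libraries, and the groups overlapped. One gene of that list, Arhgdib, fell short of the threshold (log2 -0.89, adjusted p = 0.0645) and held 29.2% to 51.1% of the list's sum in Tw2+ but 4.67% to 4.97% in Tw2-. Without Arhgdib, an alternative chosen after seeing the data, the ratio was 49.3, 69.6 and 60.4 in the Tw2+ libraries, against 36.7, 48.4 and 43.3 in the Tw2- libraries, with no overlap. Per 1000 CPM of Ptprc alone it was 337, 761 and 429 in Tw2+, against 248, 371 and 330.1 in Tw2-, which overlap.

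Among single members, the groups did not overlap per leukocyte transcript for Ebf1 and Cd79a, higher in Tw2+, and for Blk and Pax5, at 0 in Tw2+. The share of all genes without overlap on this ratio was not computed. With 0.5 counts added, Pax5 had a log2 difference of 0.12 (exact permutation p = 0.9). Its 0 counts in Tw2+ therefore do not decide whether it differed per leukocyte transcript. Ebf1 had 1458, 1570.0 and 2051 CPM per 1000 CPM of the list in the Tw2+ libraries, against 62.2, 71.4 and 158 in the Tw2- libraries, a log2 difference of 4.24 (exact two-sided permutation p = 0.1, adjusted over the 9 members 0.3). The CPM of Ebf1 itself overlapped between the groups (log2 fold change 0.21). The difference in its ratio therefore restates the lower sum of the list in Tw2+, and is no result about Ebf1. Cd79a had 10.8, 12.6 and 6.57 CPM per 1000 CPM of the list in the Tw2+ libraries, against 4.07, 3.82 and 5.66 in the Tw2- libraries, a log2 difference of 1.20 (exact permutation p = 0.1, adjusted 0.3). That difference was 2.09 against Ptprc alone, 1.94 against the list without Arhgdib, and 1.03 to 1.44 with single libraries left out. Cd79b was at 0.62 against the list (exact permutation p = 0.7), and at -0.16 without the unnumbered Tw2+ library. It was at 1.502 against Ptprc alone and 1.36 without Arhgdib (unadjusted permutation p = 0.1 each). Its groups overlapped against the list and Ptprc, but not without Arhgdib. A higher ratio under these references was therefore not particular to Cd79a. No member can pass at this size, since 0.1 is the smallest p that 3 against 3 allows. Cd37 had 6.31, 17.4 and 3.28 in Tw2+, against 13.2, 18.8 and 14.3 in Tw2-, and overlapped. Blk, at 0 in Tw2+, had 2.28, 2.20 and 3.22 in the Tw2- libraries.

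**Figure D5:**
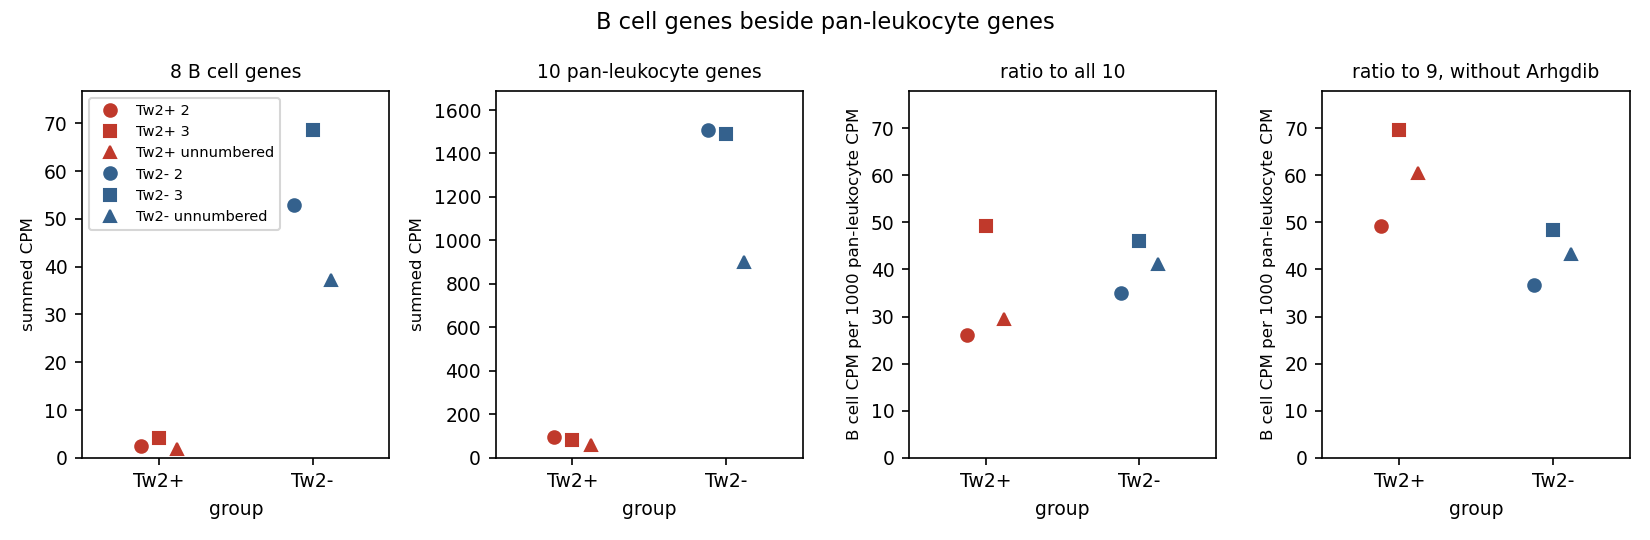
Summed CPM of the 8 members other than Ebf1, summed CPM of 10 pan-leukocyte genes, and the B cell CPM per 1000 pan-leukocyte CPM with and without Arhgdib, for the 3 Tw2+ and the 3 Tw2- libraries. Both sums are far lower in Tw2+, while the ratio overlaps between the groups with all 10 genes (26.1 to 49.3 in Tw2+ and 35.0 to 46.0 in Tw2-) and lies higher in Tw2+ without Arhgdib.

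Genes whose profile over the 6 libraries lay closest to 2 of the members were found by the root mean square distance of log2 CPM, each profile centred on its mean, among genes with at least 5 CPM on average. Nearest to Cd79a were Fam134b (distance 0.109), Sema4d (0.228), Tnfaip8 (0.246) and Acss1 (0.282), with log2 fold changes from -2.65 to -2.48. Nearest to Ebf1 were Maged1 (0.0318), Slc24a3 (0.0459), Adk (0.0490) and Sh3gl1 (0.0506), with log2 fold changes from 0.14 to 0.22.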

How the data were processed

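Bulk RNA sequencing of sorted cardiac non-cardiomyocytes was analysed for 6 libraries, 3 of Tw2+ and 3 of Tw2- cells. The authors deposited raw counts, with 1 row per gene symbol. Builds GRCm38 and mm10 are listed, together with DESeq2 1.6.3 and TopHat2 2.0.0 and without their roles, per the submitters' processing notes. The counting program, its strand setting and the annotation are not named in the sources used here, so reads of overlapping antisense genes cannot be separated. Of the value columns, 0 were left unused. Column names gave 4 libraries a replicate number, and 1 library in each group is called unnumbered.

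Differential expression was tested over the whole table by edgeR's quasi-likelihood test (edgeR 4.0.16, R 4.3.3) on all 6 libraries with TMM scaling, after filterByExpr at a minimum count of 10. Of 24062 symbols, 13180 were tested, and p-values were adjusted by Benjamini-Hochberg. A standard error is the fold change divided by the square root of the F statistic. CPM are counts scaled to TMM-adjusted library totals. Floors (3 counts) and intervals (95%, exact) cover counting error only. A lower limit given beside a floor varies the Tw2- counts alone and holds Tw2+ at 3 counts. Alternatives were DESeq2 1.42.0, limma-voom (limma 3.58.1), other scalings, filters and thresholds, robust dispersion, removal of the 20 most abundant genes, a replicate block, and leaving out single libraries. Alternatives added after seeing the data were leaving out Tw2+ 3 together with the unnumbered Tw2- library, and a pan-leukocyte list without Arhgdib. The test was first run on simulated counts with known changes. It recovered 99 of 100 changes of 8-fold but 32 of 100 changes of 2-fold. A gene that did not pass is therefore not shown to be unchanged.

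Gene positions and exonic lengths came from GENCODE M21 (GRCm38), and promoter sequences from RefSeq (GRCm38.p6). The members and gene lists were chosen with earlier results of these data known. All 9 members are described, any gene of the B cell, signalling, transcription factor and family lists may be named, and other lists gave the 2 genes with the smallest adjusted p and the 2 with the highest mean CPM. Arhgdib, Cxcr2, Retnlg, Mzb1, Tnfrsf17, Derl3, Sec11c and Fkbp11 fall outside it, since they were chosen with their values in view. Lyn, Lck, Cd53, Siglecg and Siglech stand in 2 lists each. Libraries of the same group were compared pairwise and differed beyond counting noise (chi-square divided by its degrees of freedom, at least 25.3). Some genes of the lists are counted but not reported here by name.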

Additional observations from a re-analysis of the deposited data

How the results depend on the processing

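The 7 called members stayed lower and past the threshold in all 136 results that 20 alternatives gave them, with adjusted p of at most 0.0258. The alternative of an adjusted p under 0.01 is the main fit read at a stricter threshold, not a separate fit. The filter of at least 50 counts in 3 libraries left 3 of the members called and 8 of the further B cell genes, because it tested fewer genes, and DESeq2 and edgeR without a filter added Pax5, for 8 members lower. With 1 library left out at a time, 7 to 7 members were lower, 0 to 0 were higher, and 15 to 19 further B cell genes were lower. At an unadjusted p under 0.05, 0 members were higher in edgeR, and DESeq2 and limma-voom called 0 higher at an adjusted p under 0.05. Ebf1 reversed to -0.062 with library-size scaling and -0.42 with scaling to the fibroblast list. These scalings moved the median of all genes by -0.28 and -0.66 (log2) and made 80.9% and 97.2% of all called genes lower ones, where TMM gave 59.2%. At an adjusted p under 0.01, 88.6% were lower ones. Over all genes, 1419 were lower and 976 higher, and leaving out 1 library gave 811 (without Tw2- 3) to 2906 (without Tw2+ 3) lower and 81 (without Tw2- 3) to 2801 (without Tw2+ 3) higher. Ratios to the pan-leukocyte list changed sign for Ms4a1 (-0.29, but 0.60 with Ptprc alone, 0.46 without Arhgdib and 0.094 without the unnumbered Tw2+ library), Cd22 (-0.40, but 0.49 with Ptprc and 0.34 without Arhgdib), Bank1 (-0.43, but 0.45 with Ptprc and 0.31 without Arhgdib), Cd79b (0.62, but -0.16 without the unnumbered Tw2+ library) and Pax5 (0.12, but -0.15 without that library and -0.28 without Tw2- 2). With 1 library left out, these ranged from -0.63 to 0.094 for Ms4a1, -0.16 to 1.15 for Cd79b and -0.28 to 0.38 for Pax5. They rest on counts near the floor, with 0.5 counts added, and the cause was not tested. Replicate numbers are not said to mark a shared animal or day, and only 2 pairs carry them. Their deviations correlated across genes at 0.20 for number 2 and 0.56 for number 3. Unlike numbers gave -0.42 (Tw2+ 2 with Tw2- 3) and -0.17 (Tw2+ 3 with Tw2- 2). With the number as a replicate block on these 4 libraries, 7 members and 19 further B cell genes were lower, against 7 and 16 without the block, and over all genes 2203 were lower and 1300 higher, against 1195 and 115.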

Other observations

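Genes of plasma cells, the antibody-secreting descendants of B cells, gave mixed values. Of 8 listed, 5 were tested. Prdm1, the factor that drives plasma cell formation and is also used by other leukocytes, fell to 1.37 ± 0.751 CPM for Tw2+ libraries, against 16.1 ± 11.5 CPM for Tw2- libraries (log2 fold change -3.53, edgeR adjusted p = 0.00624). Sdc1, a proteoglycan of plasma cells that stromal and epithelial cells also make, rose to 54.4 ± 19.7 CPM for Tw2+ libraries, against 26.2 ± 4.03 CPM for Tw2- libraries (log2 1.05, adjusted p = 0.0390). Xbp1, Sec11c and Fkbp11 did not pass. Mzb1 had 0, 0 and 1 counts in the Tw2+ libraries (replicate 2, replicate 3, unnumbered), against 16, 18 and 4 counts in the Tw2- libraries in the same order, and lies under another gene for 57.2% of its exonic length. Tnfrsf17, the receptor of plasma cell survival factors, had 0, 2 and 0 counts in Tw2+, against 13, 25 and 6 counts in Tw2-. Mzb1, Tnfrsf17 and Derl3 had too few counts to be tested.

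The Tw2+ 3 library held 21 of the 24 Igj counts of Tw2+, and 2 counts of Pou2af1.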
